A study of Mus musculus with 18 samples.

Results

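The question addressed here is whether BMP4 changed gene expression in the same way in ES/PA6 co-cultures and in PA6 mono-cultures after 3 days of culture. In the co-cultures, murine embryonic stem (ES) cells grew on a layer of PA6 cells, a mouse stromal line of bone marrow origin, in serum-free medium, and in the mono-cultures PA6 cells grew alone in the same medium. Each culture type was kept without growth factors (-GFs) or with BMP4 at 10 ng/ml, which gives 4 groups of 3 Illumina bead arrays, 12 of the 18 arrays of the series. The BMP4 dose is the one given with the samples, while the study's methods name a lower one for slide cultures. The other 6 arrays hold cultures with FGF2 at 20 ng/ml. They entered the fit that estimates the spread and, in the last comparison, the contrast itself. The ES cells carry an EGFP reporter knocked into the tau locus in all co-cultures and were kept on feeder fibroblasts before the experiment. A co-culture gives 1 RNA from both cell types, so a change in a co-culture can come from either. For a signal lower in 1 group, fewer cells of a type and less RNA per cell cannot be told apart in such bulk samples.

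The quantity described throughout is the difference of the BMP4 effects: the log2 change from -GFs to BMP4 in the co-cultures minus the same change in the mono-cultures. It was computed for the 15680 genes that passed detection (p under 0.05) on 3 or more of the 12 arrays, out of 30854 gene names in the table. A positive difference means that BMP4 moved a gene upward more in the co-cultures than in the mono-cultures, or downward less. A gene was called when this difference exceeded 1 log2 unit in either direction with a Benjamini-Hochberg adjusted p under 0.1 in the limma fit. Values given as ± are the standard error of that fit, with 3 arrays in each group, and levels are normalized log2 intensities, which may be compared between arrays but not between genes.

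BMP4 is a secreted ligand of the transforming growth factor β superfamily. It binds type I and type II serine/threonine kinase receptors, which phosphorylate the receptor SMADs, and these enter the nucleus with the shared SMAD partner and act on target genes. The best known immediate targets are the ID genes, which encode helix-loop-helix proteins that lack a DNA-binding region and hold back basic helix-loop-helix factors, and the inhibitory SMADs, which limit the same pathway. In mouse ES cells BMP4 is known to counter neural differentiation and, through ID proteins, to sustain self-renewal together with LIF. In mesenchymal stromal cells it is known to promote bone and fat differentiation.

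Most ES cell markers matched the labels of the cultures. All 7 ES cell markers measured, among them POU5F1, NANOG and SOX2, were detected in both co-culture groups. POU5F1 was also detected on every mono-culture array, at means of 6.86 in PA6 -GFs and 7.18 in PA6 BMP4, beside 13.19 and 13.28 in the co-cultures. NANOG was detected on 1 PA6 BMP4 array, and the other markers on no mono-culture array. The summed linear level of 8 stromal markers was 50673 to 58941 in the ES/PA6 -GFs cultures, 31128 to 47685 in the ES/PA6 BMP4 cultures, 95204 to 103768 in the PA6 -GFs cultures and 81700 to 88731 in the PA6 BMP4 cultures, so that it was lower with BMP4 in both culture types. Leukocyte PTPRC and the neural genes TUBB3, SOX1 and PAX6 were not detected on any of the 12 arrays. Other markers of the leukocyte and neural lists were detected. CD14 was detected on all 12 arrays, and CD68, CD3E and NES on every co-culture array and no mono-culture array. NCAM1 was detected on every array except those of PA6 -GFs. Each array detected 17125 to 20191 probes, arrays of 1 group correlated with each other at 0.982 to 0.992, and no 2 arrays held identical values.

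BMP4 acted differently on 89 of the 15680 genes, 0.568% of those tested. The difference was positive (higher in co-cultures) for 39 genes, 0.249%, and negative (lower in co-cultures) for 50 genes, 0.319%. At an unadjusted p under 0.05 there were 1581 genes, 10.1%, of which 733 were higher and 848 lower. The 3 same-numbered BMP4 changes of the co-cultures lay wholly above or wholly below the 3 of the mono-cultures for all 89 called genes, and for 3484 genes, 22.2%, among all tested. The median difference over all genes was -0.01.

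Among the 89 genes called in the main fit, the larger of both changes was most often in the mono-cultures. Among the 50 genes with a negative difference, 37 changed more in the mono-cultures, and among the 39 with a positive difference, 26 did. This split was not counted over all tested genes or in the paired fits below, so whether the lean holds there was not tested. Of the 89 genes, 47 passed the same thresholds in the mono-culture effect alone, 19 in the co-culture effect alone and 23 in neither. The calls fell on genes detected in both culture types and on genes not detected in one of them. Of 10275 tested genes detected on all 12 arrays, 39 were called. Of 3200 detected in both culture types on fewer arrays, 27 were called. Of 420 not detected on any co-culture array, 9 were called, and of 1785 not detected on any mono-culture array, 14. The share called was thus lowest for genes detected on all 12 arrays. The labels list 1 well of each condition for every biological replicate, so same-numbered arrays were also compared in pairs. A paired fit, in which the number was a block separately for co-cultures and mono-cultures, called 304 genes, including all 89. A paired fit in which co-cultures and mono-cultures shared the block called 152, again including all 89. The count was 50 without ES/PA6 -GFs replicate 2, 52 without PA6 -GFs replicate 2, 55 without PA6 -GFs replicate 3 and 51 without PA6 BMP4 replicate 2. Among the genes named below, the calls of DSP, EVX1, FGFR3, FIN15, GRHL3, UROC1 and 6720418B01RIK were lost without background correction, and those of DSP, FGFR3, GRHL3 and TBX3 in a fit of the 12 arrays alone.

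**Figure D1:**
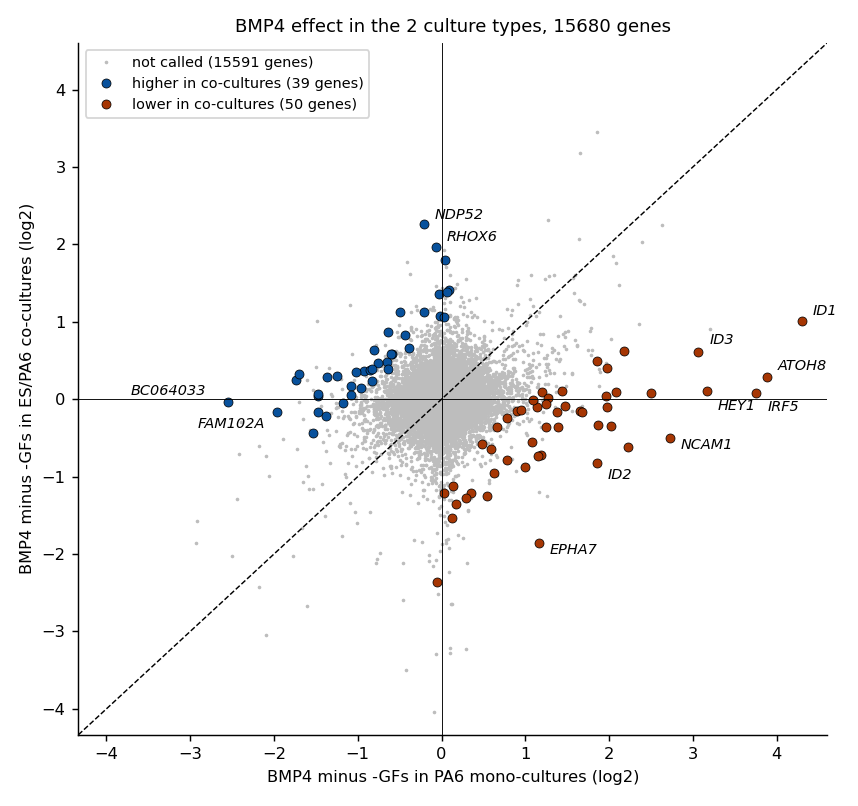
Each point is 1 of the 15680 genes, placed by its log2 BMP4 change in the PA6 mono-cultures (horizontal axis) and in the ES/PA6 co-cultures (vertical axis), and the dashed line marks equal changes. The called genes, 39 higher (blue) and 50 lower (brown) in the co-cultures, spread mostly along the horizontal axis, with ID1, ATOH8 and IRF5 farthest to the right.

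The BMP and SMAD target genes held the most calls of the 13 lists examined. Of 13 tested members of a list of 19, 5 were called and all 5 were lower in the co-cultures: ID1, ID2, ID3, HEY1 and ATOH8. At an unadjusted p under 0.05, 8 members were lower and 0 higher, and the median difference over the 13 was -1.22 beside -0.01 over all genes. For this list and those below, the shares over all 15680 genes were 0.249% called higher and 0.319% called lower. At that unadjusted p, 733 of all genes were higher and 848 lower, together 10.1%, and 8148 differences were negative. In the paired fit with separate blocks ID4 was called as well.

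RefSeq promoters (GRCm38.p6, windows of 300 bases that end 50 bases after the start) were available for 11 of the 13 tested targets. The promoters of the called targets ID2, ID3 and ATOH8 are shown with that of SMAD6, a target that was not called, because these genes respond to the same receptor SMADs. They were searched on both strands for 2 letter strings known to bind SMADs, GGCGCC and GTCTAGAC, each of which is its own reverse complement, and capitals mark the matches. ID2 lies at chr12:25096043-25096342 on the minus strand, ID3 at chr4:136143572-136143871 on the plus strand, ATOH8 at chr6:72235528-72235827 on the minus strand and SMAD6 at chr9:64022010-64022309 on the minus strand.
ID2: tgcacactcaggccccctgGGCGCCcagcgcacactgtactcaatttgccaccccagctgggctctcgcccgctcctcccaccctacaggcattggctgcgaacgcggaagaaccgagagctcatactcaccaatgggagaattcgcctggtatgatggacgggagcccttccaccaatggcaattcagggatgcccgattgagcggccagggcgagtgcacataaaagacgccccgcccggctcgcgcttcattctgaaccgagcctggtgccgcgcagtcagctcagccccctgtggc
ID3: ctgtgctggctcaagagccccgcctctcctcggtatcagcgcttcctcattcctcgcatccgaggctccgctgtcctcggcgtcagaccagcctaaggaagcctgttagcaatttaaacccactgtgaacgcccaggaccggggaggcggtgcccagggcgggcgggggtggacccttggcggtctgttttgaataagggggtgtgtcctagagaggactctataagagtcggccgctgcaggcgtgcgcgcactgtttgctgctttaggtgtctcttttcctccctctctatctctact
ATOH8: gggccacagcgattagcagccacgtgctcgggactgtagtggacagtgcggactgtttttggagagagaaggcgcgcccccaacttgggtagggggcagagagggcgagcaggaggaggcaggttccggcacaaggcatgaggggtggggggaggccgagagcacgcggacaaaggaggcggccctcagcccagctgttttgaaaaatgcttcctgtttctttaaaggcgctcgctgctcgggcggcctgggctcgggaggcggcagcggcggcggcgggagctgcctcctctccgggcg
SMAD6: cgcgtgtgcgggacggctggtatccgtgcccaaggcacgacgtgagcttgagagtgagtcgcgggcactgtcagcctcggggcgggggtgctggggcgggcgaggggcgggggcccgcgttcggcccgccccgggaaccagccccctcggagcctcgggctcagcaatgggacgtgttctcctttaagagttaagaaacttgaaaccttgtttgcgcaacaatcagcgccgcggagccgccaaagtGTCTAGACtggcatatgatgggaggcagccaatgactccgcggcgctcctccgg
The ID2 window held 1 GGCGCC and the SMAD6 window 1 GTCTAGAC, while those of ID3 and ATOH8 held neither. Over the targets with a promoter, 6 of 11 (54.5%) held GGCGCC, beside 11.9% of all 32851 promoters, and 1 of 11 held GTCTAGAC, beside 0.213%. Of the 3 called targets with a promoter, 1, ID2, held GGCGCC. The counts by gene, here and for the called genes, take a match in any window of a gene, while the 32851 are single windows and are not limited to the tested genes. GATA2, for example, had a window with GGCGCC and a window without it. Among called genes with a promoter, GGCGCC was in 10 of 28 (35.7%) of those lower and in 4 of 20 (20.0%) of those higher in the co-cultures. A match is a string of letters and not a measured binding site.

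ID1 rose with BMP4 from levels of 7.35, 8.15 and 7.76 to 12.02, 12.16 and 12 in the mono-cultures. In the co-cultures its levels were 8.37, 9.21 and 9.61 without growth factors and 9.90, 10.96 and 9.36 with BMP4. The 3 treated mono-cultures therefore stood above every other culture, while the co-culture groups overlapped. The difference of the effects was -3.29 ± 0.62 (adjusted p = 0.0327), from a change of 4.31 in the mono-cultures and 1.01 in the co-cultures.

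ID3 followed the same order. Its levels in the mono-cultures went from 7.59, 8.12 and 7.73 to 11.13, 10.65 and 10.87, and in the co-cultures from 7.84, 8.49 and 8.36 to 8.86, 9.03 and 8.64. Here the co-culture groups did not overlap either, but their change was smaller. The difference was -2.45 ± 0.31 (adjusted p = 0.00134), from changes of 3.07 and 0.62.

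ID2 moved in opposite directions. In the mono-cultures its levels went from 9.09, 8.62 and 8.72 up to 11.08, 10.50 and 10.39. In the co-cultures they went from 8.75, 8.93 and 9.18 down to 8.02, 8.57 and 7.81. Neither pair of groups overlapped, and all 3 same-numbered changes were positive in the mono-cultures and negative in the co-cultures. The difference was -2.67 ± 0.44 (adjusted p = 0.0118), and a further probe of the gene gave -1.92. A probe listed under IDB2, an older name of ID2, gave -2.85 ± 0.60 (adjusted p = 0.0597), a call lost on leaving out any 1 of 9 arrays (adjusted p 0.102 to 0.129) and kept without ES/PA6 -GFs replicate 1, ES/PA6 BMP4 replicate 2 or PA6 BMP4 replicate 3. The 89 calls thus hold ID2 under both names.

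HEY1, a repressor of the helix-loop-helix class that is also a known Notch target, had levels of 6.94, 6.49 and 6.29 in PA6 -GFs and of 9.71, 10.04 and 9.47 in PA6 BMP4 cultures. In the co-cultures it was already high without BMP4, at 8.32, 9.34 and 9.75, and was 8.69, 9.46 and 9.57 with it. Its difference was -3.06 ± 0.54 (adjusted p = 0.0218). ATOH8, a basic helix-loop-helix factor, was detected on all 3 PA6 BMP4 arrays at 9.66, 9.38 and 9.25, on 1 ES/PA6 BMP4 array and on no array without growth factors. Its difference was -3.61 ± 0.35 (adjusted p = 1.73e-04), and -2.99 with undetected values raised to the lowest detected value of their array.

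ID4, the inhibitory SMAD6, the immediate early factor JUNB and the secreted BMP antagonist GREM1 were not called. ID4 went from 9.41, 9.10 and 9.11 to 11.48, 10.67 and 10.81 in the mono-cultures and from 7.41, 8.13 and 8.18 to 8.49, 8.56 and 8.37 in the co-cultures, so its groups did not overlap in either culture type. The difference was -1.22 ± 0.32 (adjusted p = 0.140, and 0.0286 in the paired fit with separate blocks). The difference for SMAD6 was -0.78 ± 0.39 (adjusted p = 0.532), from changes of 1.47 in the mono-cultures and 0.69 in the co-cultures. JUNB had -0.68 ± 0.30 (adjusted p = 0.462) and GREM1 had -1.54 ± 0.55 (adjusted p = 0.302). For the BMP targets as a group, the stromal marker level above was lower in co-cultures than in mono-cultures and lower with BMP4 in both types, and its part in these differences was not tested.

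**Figure D2:**
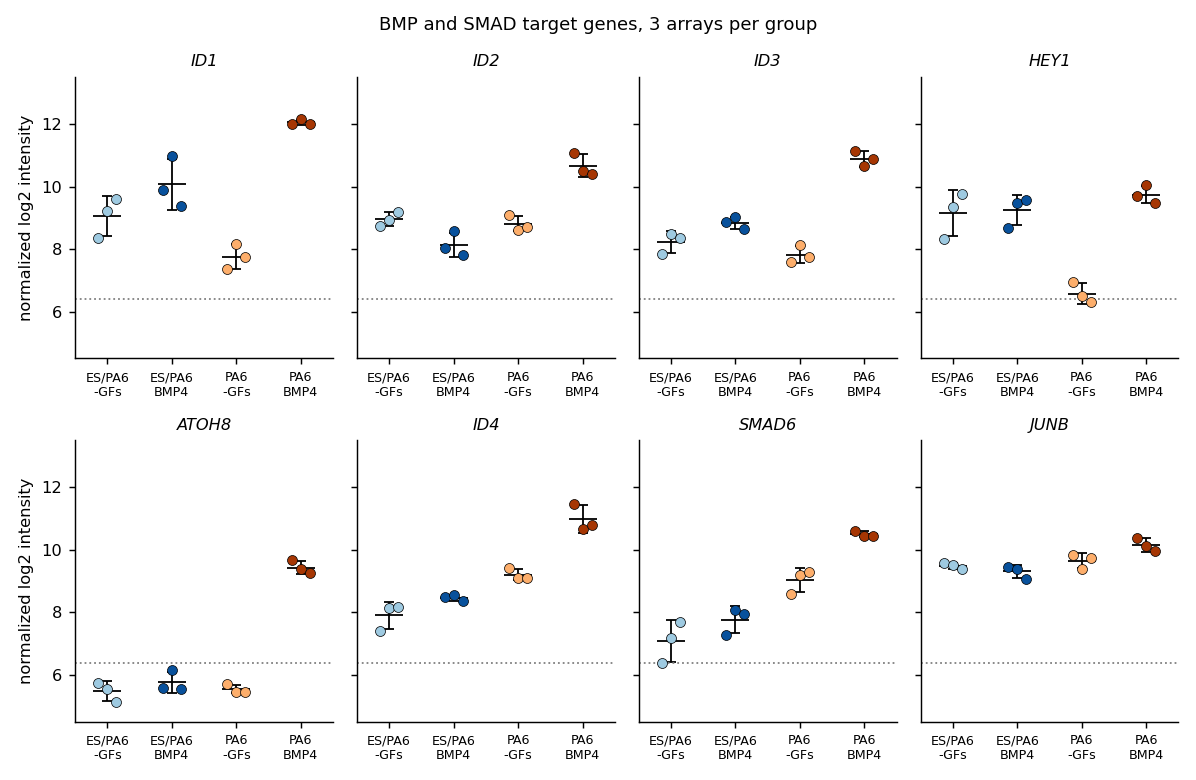
Normalized log2 intensity of 8 BMP and SMAD target genes in the 4 groups (points, 3 arrays each; bars, mean ± SD; dotted line, the highest of the arrays' lowest detected values, 6.39). For the called ID1, ID2, ID3 and ATOH8, and also for ID4 and SMAD6, which were not called, the 3 PA6 BMP4 arrays lie above the other 9.

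The ligands, receptors, SMADs and antagonists of the pathway gave a single call. Of 19 tested members of a list of 27, 1 was called higher and 0 lower, and the median difference was 0.12. The called gene was ENG, the co-receptor endoglin. Its levels went from 8.57, 8.59 and 7.75 to 9.13, 8.61 and 9.07 in the co-cultures and from 7.86, 8.25 and 7.88 down to 7.26, 7.03 and 7.28 in the mono-cultures. The difference was 1.44 ± 0.31 (adjusted p = 0.0622), lost on leaving out any 1 of 6 arrays (adjusted p 0.109 to 0.162) and kept without any ES/PA6 -GFs replicate, ES/PA6 BMP4 replicate 2, PA6 -GFs replicate 1 or PA6 BMP4 replicate 3. The transcript of the ligand, BMP4, went from 10.27, 11.25 and 11.42 to 9.75, 9.75 and 10.37 in the mono-cultures, and from 10.20, 10.45 and 10.62 to 10.53, 10.93 and 10.83 in the co-cultures. Its difference of 1.36 ± 0.36 did not pass (adjusted p = 0.145) but did in the paired fit with separate blocks (adjusted p = 0.0151). A further BMP4 probe gave 0.44 ± 0.38, with a mono-culture change near 0, so the probes of this gene disagree. RGMA, a BMP co-receptor, gave -0.73 ± 0.26 (adjusted p = 0.315).

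Other genes with large negative differences were IRF5, NCAM1, SLC13A4 and EGFL7. IRF5, a transcription factor of the interferon regulatory family, was detected only on the 3 PA6 BMP4 arrays, at 9.14, 8.89 and 9.25, and its values on the other 9 arrays lay between 4.93 and 5.53. The difference was -3.68 ± 0.26 (adjusted p = 4.42e-06), or -2.72 with undetected values raised to the lowest detected value. IRF5 passed the detection filter only through the PA6 BMP4 group, where it is high, and was not tested without any 1 of those 3 arrays. NCAM1, the neural cell adhesion molecule, was not detected in PA6 -GFs and reached 8.61, 7.69 and 8.25 in PA6 BMP4 cultures. In the co-cultures it stood at 7.70, 7.25 and 7.32 without and at 7.22, 6.36 and 7.20 with BMP4. Its difference was -3.22 ± 0.40 (adjusted p = 0.00118), but a further NCAM1 probe gave -0.30, so the probes of this gene disagree.

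SLC13A4, a sulfate transporter, had levels of 7.64, 8.72 and 7.31 with BMP4 in the mono-cultures and was not detected there without it. In the co-cultures the groups overlapped, with 7.21, 7.06 and 7.17 against 6.49, 7.81 and 7.36. The difference was -2.43 ± 0.48 (adjusted p = 0.0408), and the call was lost without PA6 -GFs replicate 3 (-2.22, adjusted p = 0.109) and with undetected values raised to the lowest detected value (-1.51, adjusted p = 0.144). EGFL7, a secreted factor known from endothelial cells, rose from 8.30, 8.43 and 8.31 to 10.11, 9.96 and 9.91 in the mono-cultures and had 12.06, 11.78 and 12.28 against 11.98, 11.46 and 12.23 in the co-cultures. Its difference was -1.80 ± 0.29 (adjusted p = 0.0118), and -2.15 at a further probe.

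The positive differences were of 2 kinds. For 26 of the 39 genes, the larger change was in the mono-cultures. FAM102A went from 12.82, 12.75 and 12.69 to 10.77, 10.68 and 10.90 in the mono-cultures, against 10.82, 10.99 and 10.75 to 10.58, 10.70 and 10.80 in the co-cultures. With BMP4 the mono-cultures thus reached the level of the co-cultures, and the difference was 1.81 ± 0.19 (adjusted p = 2.85e-04). TINAG, a basement membrane antigen, went from 10.71, 10.78 and 10.81 to 8.95, 8.84 and 9.40 in the mono-cultures and from 5.72, 5.88 and 6.12 to 6.21, 6.27 and 6.21 in the co-cultures, a difference of 2.03 ± 0.26 (adjusted p = 0.00179).

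BC064033, a gene named only by a sequence record, gave the largest positive difference. It fell from 9.78, 9.64 and 9.26 to 7.51, 6.85 and 6.66 in the mono-cultures and was not detected on any co-culture array, with a difference of 2.52 ± 0.27 (adjusted p = 3.17e-04). ANKRD47, now KANK3, an adaptor of the cytoskeleton, differed by 1.65 ± 0.24 (adjusted p = 0.00561), and LOC100047619 by 1.56 ± 0.27 (adjusted p = 0.0207). IFI27, an interferon-inducible gene, fell from 13.92, 13.90 and 14.28 to 12.82, 11.74 and 12.33 in the mono-cultures and stayed between 11.42 and 12.15 in the co-cultures. Its difference of 1.98 ± 0.43 (adjusted p = 0.0663) was lost on leaving out any 1 of 9 arrays (adjusted p 0.105 to 0.149) and kept without replicate 1 of ES/PA6 -GFs, ES/PA6 BMP4 or PA6 BMP4.

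For the other 13 genes, the larger change was in the co-cultures. RHOX6 and RHOX9, homeobox genes of the reproductive cluster on the X chromosome, were both of this kind and were not detected in the mono-cultures. RHOX6 went from 8.12, 8.0 and 8.24 to 10.22, 10.31 and 9.75 in the co-cultures, with a difference of 2.04 ± 0.22 (adjusted p = 3.61e-04). RHOX9 went from 10.01, 9.70 and 10.04 to 11.90, 11.80 and 11.45, with a difference of 1.76 ± 0.21 (adjusted p = 7.82e-04). NDP52, the autophagy receptor now named CALCOCO2, went from 8.48, 7.94 and 8.67 to 10.80, 10.75 and 10.33, and was not detected in the mono-cultures either, with a difference of 2.47 ± 0.34 (adjusted p = 0.00302) and of 2.39 at a further probe. UROC1, an enzyme of histidine breakdown, was detected everywhere and went from 6.75, 7.08 and 6.68 to 8.26, 8.08 and 7.56 in the co-cultures and from 7.10, 7.26 and 7.18 to 6.36, 6.75 and 6.93 in the mono-cultures. Its difference was 1.63 ± 0.25 (adjusted p = 0.00853), a call lost without background correction.

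Of the 89 called genes, 64 had effects of opposite sign, which near 0 says little. In 23 of them, 0.147% of the genes tested, both effects also passed an unadjusted p under 0.05, and 75 did in the paired fit with separate blocks and 37 in that with shared blocks. Quantile normalization without background correction gave 9 such genes and a cubic spline 10. None of the 89 (0) passed the full thresholds in both effects with opposite signs. In the paired fit with separate blocks, which is the paired fit meant from here on, 4 genes did, EPHA7, MFAP4, CAPN6 and C230098O21RIK, the last 3 of which are named here after their values were seen. The count of 23 was 11 without ES/PA6 -GFs replicate 2 or PA6 -GFs replicate 3, 13 without PA6 BMP4 replicate 1, and 14 without ES/PA6 BMP4 replicate 3, PA6 -GFs replicate 2 or PA6 BMP4 replicate 2.

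EPHA7, a receptor for ephrin ligands, had the widest opposite movement. It fell from 7.04, 8.17 and 8.78 to 6.07, 6.11 and 6.23 in the co-cultures and rose from 6.40, 5.99 and 5.43 to 7.28, 7.54 and 6.50 in the mono-cultures. Neither pair of groups overlapped. The difference was -3.02 ± 0.66 (adjusted p = 0.0667), lost on leaving out any 1 of 9 arrays (adjusted p 0.109 to 0.167) and kept without ES/PA6 -GFs replicate 1, PA6 -GFs replicate 1 or PA6 BMP4 replicate 3.

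LAMA1 and OLFM1 also moved in opposite directions. LAMA1, the laminin α1 chain of basement membranes, fell from 9.55, 9.89 and 10.02 to 9.18, 8.66 and 9.46 in the co-cultures, and rose from undetected values to 6.14, 6.68 and 6.79 in the mono-cultures, the last 2 being detected. The difference was -1.91 ± 0.34 (adjusted p = 0.0249), and the call was lost, at -1.0, with undetected values raised to the lowest detected value. OLFM1, a secreted glycoprotein known from the brain, fell from 9.34, 9.47 and 9.59 to 8.88, 8.44 and 8.87 and rose from undetected values to 6.85, 6.72 and 6.19, with a difference of -1.89 ± 0.28 (adjusted p = 0.00557). Both further OLFM1 probes were negative too, at -1.36 and -1.5.

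ZFP703, a zinc finger repressor of transcription, was detected on all 12 arrays. It fell from 7.56, 8.17 and 8.30 to 6.83, 7.33 and 7.50 in the co-cultures and rose from 9.78, 9.52 and 9.60 to 10.44, 10.39 and 10.40 in the mono-cultures. The difference was -1.57 ± 0.32 (adjusted p = 0.0525), lost on leaving out any 1 of 6 arrays (adjusted p 0.107 to 0.133) and kept without ES/PA6 -GFs replicate 1 or 3, ES/PA6 BMP4 replicate 2 or 3, PA6 -GFs replicate 1 or PA6 BMP4 replicate 3. FIN15, now GSDME, which encodes the pore-forming gasdermin E, differed by -1.87 ± 0.41 (adjusted p = 0.0663), a call lost on leaving out any 1 of 9 arrays (adjusted p 0.104 to 0.166) and kept without replicate 1 of ES/PA6 -GFs or of ES/PA6 BMP4 or without PA6 BMP4 replicate 2. The unnamed transcript 6720418B01RIK differed by -1.57 ± 0.23 (adjusted p = 0.00507) and was not detected in either mono-culture group, so its mono-culture rise, from a mean of 5.21 to 5.83, rests on undetected values. With undetected values raised to the lowest detected value its difference was -0.85 and the call was lost.

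In the opposite order, ESPN, the actin bundling protein espin, rose from 7.38, 6.93 and 7.70 to 7.76, 8.39 and 8.47 in the co-cultures and fell from 8.0, 7.81 and 8.11 to 7.53, 7.31 and 7.17 in the mono-cultures. Its difference was 1.5 ± 0.28 (adjusted p = 0.0307), but its further probes gave -0.21 and 0.14. KLF2, a factor of the naive pluripotency network, rose from 12.02, 11.54 and 11.95 to 12.49, 12.41 and 12.34 in the co-cultures and fell from 10.85, 10.99 and 10.87 to 10.46, 9.95 and 10.49 in the mono-cultures. Its difference was 1.18 ± 0.23 (adjusted p = 0.0387), and the call was lost without PA6 -GFs replicate 2 (1.14, adjusted p = 0.103).

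**Figure D3:**
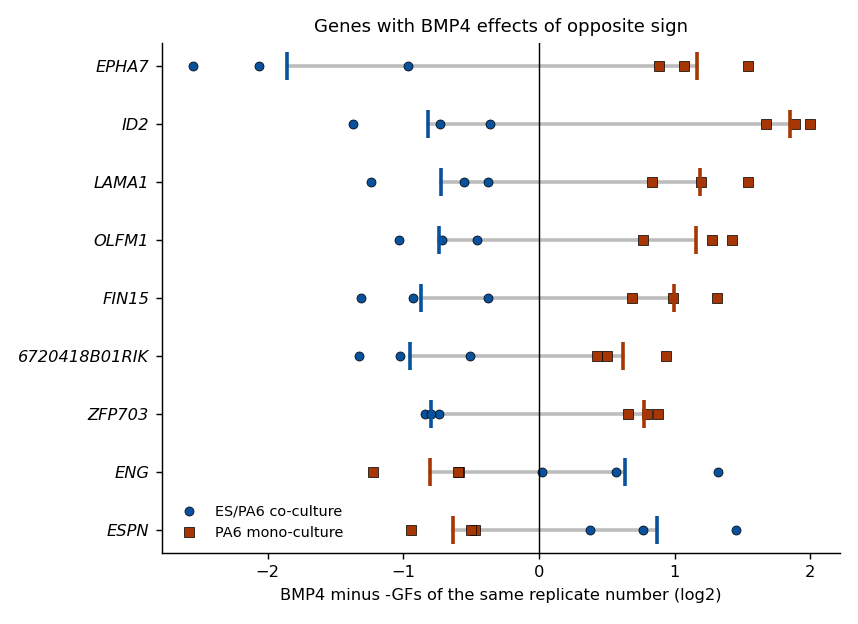
Same-numbered BMP4 changes (log2, BMP4 minus -GFs) of 9 genes with effects of opposite sign, with circles for the 3 ES/PA6 co-cultures, squares for the 3 PA6 mono-cultures and vertical ticks for their means. ENG and ESPN lie above 0 in the co-cultures, the other 7 genes below 0.

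The pluripotency and epiblast genes had mostly positive differences. Of 25 tested genes of a list of 26, 2 were called higher and 0 lower, 8 were higher at an unadjusted p under 0.05, and 18 differences were positive, with a median of 0.29. Over all 15680 genes, 0.249% were called higher, 733 were higher at that p, and 8148 differences were negative. KLF2, described above, and TBX3, a T-box factor of the same network, were called. TBX3 went from 8.53, 7.77 and 8.15 to 9.63, 8.89 and 9.33 in the co-cultures and from 8.12, 8.27 and 7.78 to 7.91, 7.82 and 7.83 in the mono-cultures. Its difference was 1.34 ± 0.30 (adjusted p = 0.0731), lost on leaving out any 1 of 9 arrays (adjusted p 0.112 to 0.181) and kept without ES/PA6 -GFs replicate 1, ES/PA6 BMP4 replicate 2 or PA6 -GFs replicate 3, and a further probe gave 0.65. In the paired fit 5 members were called, adding KLF4, DPPA3 and TCFCP2L1. KLF4 fell from 10.26, 10.23 and 9.96 to 9.25, 8.75 and 9.25 in the mono-cultures and was 9.86, 9.29 and 9.55 against 10.10, 9.10 and 9.78 in the co-cultures, a difference of 1.16 ± 0.34 (adjusted p = 0.182). Its further probes gave 1.55 and 1.17, and KLF4 was called when every kept probe was tested. The summed level of the 7 ES cell markers was 23364 to 33391 in ES/PA6 -GFs and 29787 to 37483 in ES/PA6 BMP4 cultures, ranges that overlap, and its part in these values was not tested. The core factors POU5F1, NANOG and SOX2 had differences of -0.25, -0.17 and 0.16. Their further probes gave 0.41, 0.88 and 0.53, so that the sign for POU5F1 and NANOG differed between probes.

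Keratins and surface ectoderm genes had only positive differences at the probe that stood for each gene. All 13 tested genes of a list of 21 had a positive sign, 8 of them passed an unadjusted p under 0.05, and the median was 0.95. Over all 15680 genes, 733 were higher at that p. A further probe of CDH1, a member of this list, gave -0.31, so the probes of that gene differ in sign. The 2 called members were DSP and GRHL3. DSP, the desmosomal protein desmoplakin, was detected only on the ES/PA6 BMP4 arrays, at 7.35, 6.28 and 7.35, and its difference was 1.39 ± 0.29 (adjusted p = 0.0622). It was lost on leaving out any 1 of 7 arrays (adjusted p 0.110 to 0.146), kept without ES/PA6 -GFs replicate 1 or 3, and not tested without any ES/PA6 BMP4 array, since detection then fell below 3 arrays. DSP thus passed the detection filter only through the group where it is high, and its positive sign followed largely from how it entered the test. The list's median and its counts above include DSP. GRHL3, a grainyhead-like factor of the epidermis, went from 6.52, 6.53 and 6.65 to 7.64, 7.22 and 8.04 in the co-cultures and was not detected in the mono-cultures. Its difference of 1.04 ± 0.24 (adjusted p = 0.0734) was kept without ES/PA6 BMP4 replicate 2 and lost without any 1 of the other 11 arrays (adjusted p 0.10 to 0.167).

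The simple epithelial keratins had differences of similar size with a wider spread. KRT8 was at 9.53, 9.55 and 10.27 without and at 10.52, 11.46 and 11.77 with BMP4 in the co-cultures, and was not detected in the mono-cultures. Its difference was 1.53 ± 0.49 (adjusted p = 0.246). KRT18, its partner in the filament, had 1.10 ± 0.45 (adjusted p = 0.409) and KRT19 had 1.43 ± 0.44 (adjusted p = 0.211). KRT14, a keratin of basal epidermis, went from 5.98, 5.39 and 5.43 to 6.74, 7.87 and 8.67, a difference of 2.04 ± 0.52 (adjusted p = 0.123). In all 4 keratins the co-culture groups did not overlap, and in the paired fit KRT8, KRT14, KRT18 and KRT19 passed (adjusted p 0.0179 to 0.0972), which made 6 called members of this list.

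The early neural and neural crest genes showed the lowest median of the 13 lists, -1.63 over 14 tested genes of 30. NCAM1 alone was called lower, and it differs from the rest since its larger change was in the mono-cultures. At an unadjusted p under 0.05, 10 members were lower and 0 higher, and 13 of the 14 differences were negative. Over all 15680 genes, 848 were lower at that p, and 8148 differences were negative. EDNRB, the endothelin receptor of neural crest cells, was at 8.15, 10.01 and 10.84 in ES/PA6 -GFs and at 5.01, 5.46 and 6.41 in ES/PA6 BMP4 cultures, and was not detected in the mono-cultures. Its difference was -3.95 ± 0.99 (adjusted p = 0.118), and -1.94 at a further probe. CRABP1, a retinoic acid binding protein, went from 10.46, 11.79 and 12.84 to 7.80, 7.92 and 9.74, a difference of -3.31 ± 0.81 (adjusted p = 0.110).

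ZIC1, a zinc finger factor of the neural plate, was at 6.52, 8.29 and 10.23 without BMP4 and not detected with it in the co-cultures. Its difference was -3.52 ± 1.06 (adjusted p = 0.196). ZIC1 passed the detection filter only through the 3 ES/PA6 -GFs arrays, where it is high, and was not tested without any 1 of them. Its negative sign thus followed largely from how it entered the test. The list's median and its counts of lower genes and negative differences above include ZIC1. CRABP2 differed by -2.01 ± 0.73 (adjusted p = 0.322). In EDNRB, CRABP1, ZIC1 and CRABP2 alike, replicate 1 of the co-cultures without growth factors had the lowest and replicate 3 the highest level. In the paired fit 7 members were called, adding CRABP1, CRABP2, EDNRB, NES, SOX21 and ZIC1. CRABP1, CRABP2, EDNRB, NES and ZIC1 were not detected on any mono-culture array, so their differences rest on the co-culture side.

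**Figure D4:**
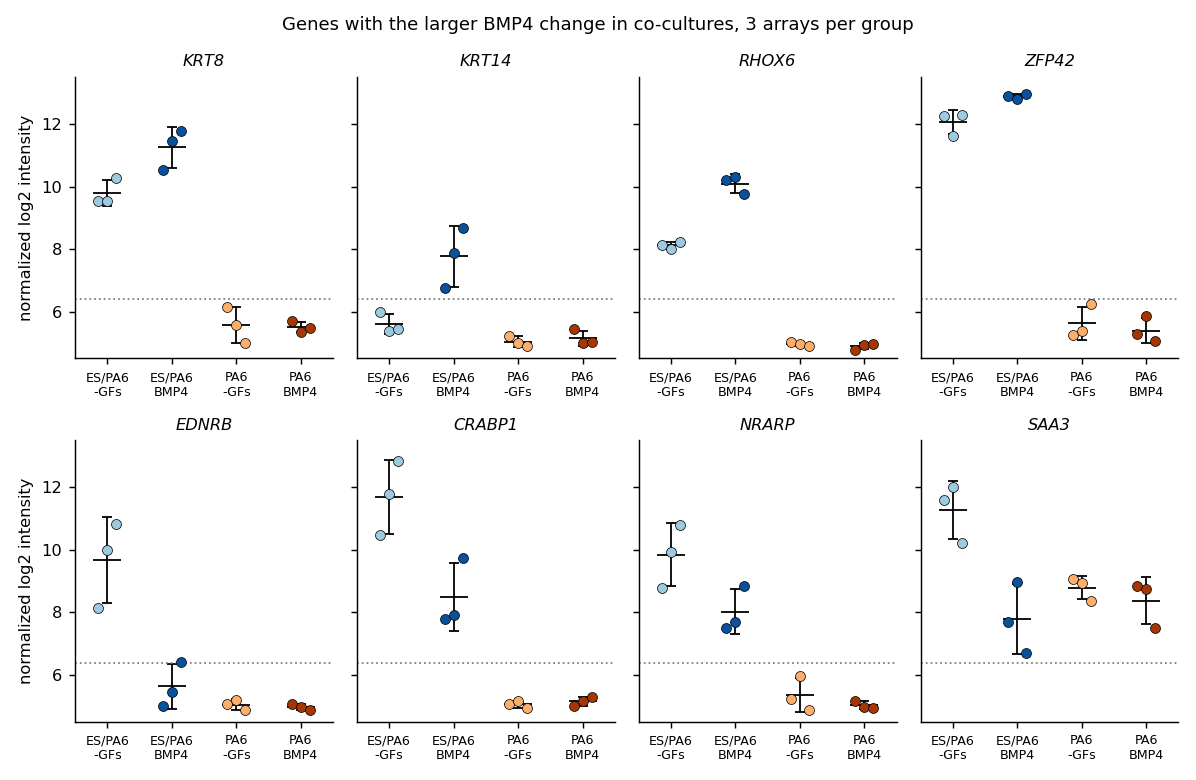
Normalized log2 intensity of 8 genes, chosen after their values were seen, whose BMP4 change was larger in the co-cultures (points, 3 arrays per group; bars, mean ± SD; dotted line, the highest of the arrays' lowest detected values, 6.39). KRT8, KRT14, RHOX6 and ZFP42 are higher with BMP4 in the co-cultures, and EDNRB, CRABP1, NRARP and SAA3 lower, while the mono-culture groups lie close together.

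The Notch genes had a negative median, -0.77 over 10 tested genes of 15, with 2 called lower and 0 higher. HEY1 is given above. MFNG, a glycosyltransferase that modifies Notch, fell from 8.22, 8.64 and 8.64 to 7.39, 6.79 and 7.25 in the co-cultures and was not detected in the mono-cultures, a difference of -1.53 ± 0.28 (adjusted p = 0.0307). NRARP, a Notch-induced feedback gene, had -1.49 ± 0.74 (adjusted p = 0.529, and 0.0444 in the paired fit), and the ligand DLL1 had -0.94 ± 0.41 (adjusted p = 0.442). Thus the 2 called members differ in side, HEY1 having changed in the mono-cultures and MFNG in the co-cultures.

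Of the primitive streak and mesoderm genes, 11 of 28 were tested and 1, EVX1, was called higher. EVX1, a homeobox gene of the posterior streak, went from 6.52, 6.50 and 6.40 to 7.27, 7.17 and 6.96 in the co-cultures and from 6.08, 6.18 and 6.63 to 5.69, 5.88 and 6.14 in the mono-cultures. Its difference was 1.05 ± 0.22 (adjusted p = 0.0583), lost on leaving out any 1 of 6 arrays (adjusted p 0.103 to 0.134) and kept without ES/PA6 -GFs replicate 1 or 3, ES/PA6 BMP4 replicate 3, PA6 -GFs replicate 1 or 2 or PA6 BMP4 replicate 3. In the mono-cultures EVX1 was detected on 1 PA6 -GFs array and on no PA6 BMP4 array, so its fall there rests largely on undetected values. With undetected values raised to the lowest detected value its difference was 0.84 and the call was lost. The streak gene T (brachyury) was at 5.0, 5.77 and 6.03 without and 5.74, 7.41 and 7.94 with BMP4 in the co-cultures, a difference of 1.26 ± 0.61 (adjusted p = 0.511). WNT3A differed by -2.47 ± 0.97 (adjusted p = 0.374) and FGF8 by 1.25 ± 0.74 (adjusted p = 0.653). The list's median was -0.10, and in the paired fit 3 members (EVX1, T, FGF8) were called higher and 1 (WNT3A) lower.

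Among endothelial genes, 18 of 22 were tested, EGFL7 was called lower and 0 were called higher, with a median of 0.04. PECAM1, an adhesion molecule of endothelial and ES cells, differed by 1.30 ± 0.44 (adjusted p = 0.265) and the angiopoietin receptor TEK by 1.09 ± 0.30 (adjusted p = 0.161), both called in the paired fit. TEK was at 8.77, 8.25 and 8.47 against 8.69, 8.65 and 9.24 in the co-cultures and fell from 8.31, 7.87 and 8.01 to 7.45, 7.26 and 7.30 in the mono-cultures. The summed level of 6 endothelial markers was 813 to 1979 in ES/PA6 -GFs and 1424 to 3238 in ES/PA6 BMP4 cultures, ranges that overlap, and at most 294 in the mono-cultures. The markers did not move together in the co-cultures. Mean levels went from 8.99 to 10.15 for PECAM1 and from 7.75 to 8.37 for ESAM, but from 8.66 down to 7.96 for CLDN5. CDH5 and EMCN were detected on 1 array of each co-culture group, and TIE1 on no co-culture array.

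The genes of the stromal fates gave 0 calls. Of 18 tested adipocyte genes, 1 was higher and 2 lower at an unadjusted p under 0.05, beside 10.1% of all genes in either direction. The median was -0.34, and 13 of the 18 differences were negative. ADIPOQ, which encodes adiponectin, was higher with BMP4 in both culture types, from 8.03, 9.92 and 7.18 to 11.73, 13.18 and 10.58 in the co-cultures and from 11.42, 11.74 and 11.62 to 12.95, 14.33 and 13.05 in the mono-cultures. Its difference was 1.60 ± 0.93 (adjusted p = 0.639). S3-12, the lipid droplet protein now named PLIN4, differed by 2.18 ± 0.68 (adjusted p = 0.220), and in the paired fit S3-12 and CFD (adipsin) were called higher. PLIN, also of this list, differed by -1.39 and was not called. It was called lower only without ES/PA6 BMP4 replicate 2 (-2.08, adjusted p = 0.093). Of 22 tested osteoblast and matrix genes, 2 were higher and 0 lower at an unadjusted p under 0.05, with a median of 0.10. FMOD, the collagen-binding fibromodulin, fell from 10.35, 10.20 and 10.45 to 9.03, 8.15 and 8.86 in the mono-cultures and was not detected in the co-cultures, a difference of 1.40 ± 0.35 (adjusted p = 0.119), which passed in the paired fit.

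Of 21 tested WNT pathway genes 0 were called, with 1 higher and 4 lower at an unadjusted p under 0.05 and a median of -0.19. AXIN2, a feedback inhibitor induced by WNT signalling, rose from 6.97, 7.14 and 6.25 to 7.79, 8.21 and 7.84 in the mono-cultures and was 8.76, 9.34 and 10.03 against 8.83, 9.27 and 9.64 in the co-cultures, a difference of -1.29 ± 0.47 (adjusted p = 0.325). In the paired fit AXIN2 and NKD2 were called lower. WNT6 differed by 1.90 ± 0.64 (adjusted p = 0.271) and was not called in the paired fit either (adjusted p = 0.184). A further WNT6 probe gave 2.09 ± 0.56, and no WNT pathway probe was called when every kept probe was tested. Leaving out 1 array at a time gave WNT6 differences of 1.25 to 2.69. It was called only without ES/PA6 BMP4 replicate 1 (2.69, adjusted p = 0.00208).

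Of 20 tested acute phase, chemokine and interferon genes, IRF5 was called lower and 0 were called higher, with a median of -0.02. IFI27, called higher above, is not a member of this list. SAA3, an acute phase serum amyloid, fell in the co-cultures from 11.61, 12.01 and 10.22 to 7.70, 8.96 and 6.70 and stood at 9.06, 8.93 and 8.38 against 8.85, 8.75 and 7.51 in the mono-cultures. Its difference of -3.07 ± 0.85 had an adjusted p of 0.161, and of 4.76e-04 in the paired fit. IFIT3, an interferon-induced gene, went the other way, falling from 12.42, 12.09 and 12.38 to 11.10, 10.44 and 10.87 in the mono-cultures, a difference of 1.91 ± 0.63 (adjusted p = 0.261). CCL5, a chemokine, differed by 1.33 ± 0.64 (adjusted p = 0.509), and both IFIT3 and CCL5 passed in that fit.

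Of the 29 tested transcripts that the study followed by PCR, a list chosen partly on these samples and so not independent of them, TBX3 was called higher and FGFR3 lower, with a median of -0.04. FGFR3, a receptor for fibroblast growth factors, was detected on all 3 PA6 BMP4 arrays at 6.89, 7.68 and 6.79, on 1 PA6 -GFs array and on no co-culture array. Its difference was -1.60 ± 0.34 (adjusted p = 0.0646), lost on leaving out any 1 of 7 arrays (adjusted p 0.111 to 0.152) and kept without ES/PA6 -GFs replicate 1, ES/PA6 BMP4 replicate 2, PA6 -GFs replicate 3 or PA6 BMP4 replicate 1 or 3. It was also lost, at -0.75, with undetected values raised to the lowest detected value.

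**Figure D5:**
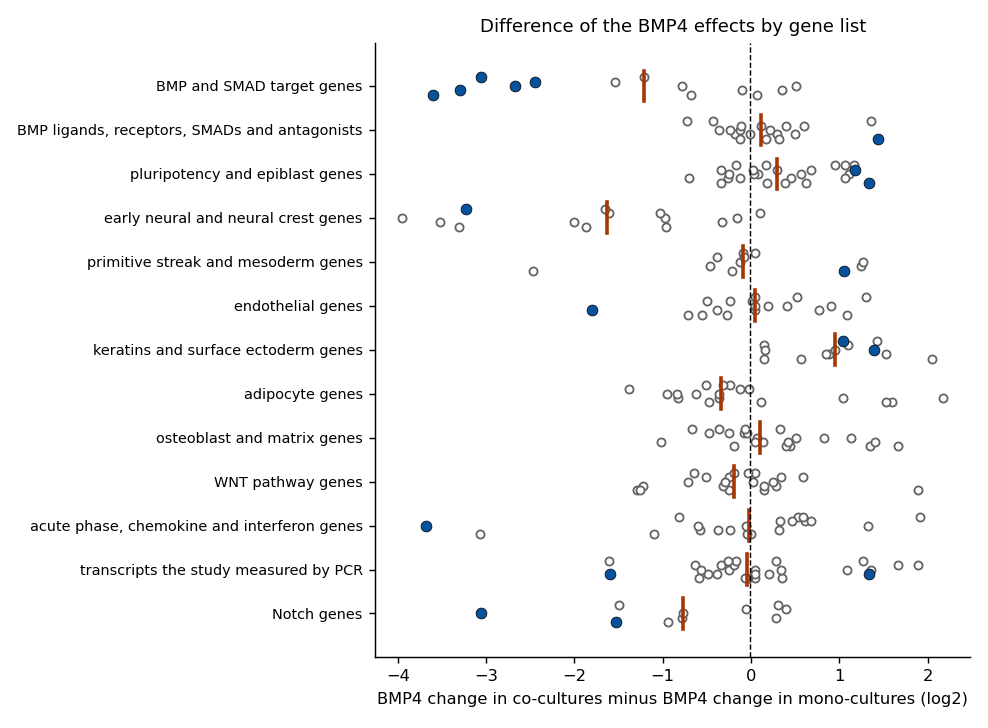
Differences of the BMP4 effects (log2, co-culture change minus mono-culture change) for the tested members of 13 gene lists; filled points are called genes, brown ticks list medians and the dashed line the median of all genes, -0.01. Target and neural genes lie mostly to the left, keratins wholly to the right.

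The last comparison sets BMP4 against FGF2. The BMP4 minus FGF2 difference of the co-cultures was set against that of the mono-cultures, which leaves the -GFs cultures out of the contrast. By this test 1027 genes were called, 6.55% of the 15680, with 461 higher and 566 lower, and 44 of the 89 genes were among them, 37 with the same sign as before. The BMP4 arrays are shared by both contrasts, so these counts are not independent of each other. The contrast also holds the difference of the FGF2 effects between the culture types, for which 1131 genes were called, 7.21%. A value that kept, lost or turned its sign here therefore does not show to which factor a difference belongs.

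Of the BMP targets set against FGF2, ID1 had -3.12 (adjusted p = 0.00554), ID2 -2.88 (adjusted p = 7.58e-04), HEY1 -4.30 (adjusted p = 1.69e-04) and ATOH8 -1.70 (adjusted p = 0.00733). ID3 had -0.70 (adjusted p = 0.195) and JUNB 0.92 (adjusted p = 0.0768), and neither was called. ID4 had -3.37 (adjusted p = 1.30e-05). In the mono-cultures ID4 had a mean level of 9.20 without growth factors and of 7.29 with FGF2, and the difference of its FGF2 effects was 2.15 (adjusted p = 4.69e-04). IRF5 had -4.12 (adjusted p = 8.25e-07), and NCAM1 -2.53 (adjusted p = 0.00107).

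On the positive side RHOX6 had 1.38 (adjusted p = 0.00136), RHOX9 1.48 (adjusted p = 4.40e-04) and FAM102A 1.07 (adjusted p = 0.00243). TINAG and BC064033 turned negative, with -2.11 (adjusted p = 1.71e-04) and -1.46 (adjusted p = 0.00334). In the mono-cultures both were lower still with FGF2 than with BMP4, at mean levels of 6.53 for TINAG and 5.41 for BC064033, so the differences of their FGF2 effects were 4.14 and 3.98. NDP52 had 0.64 (adjusted p = 0.292) and EPHA7 -0.95 (adjusted p = 0.446), and neither was called. Of the opposite-sign genes, LAMA1 had -2.55 (adjusted p = 3.17e-04), OLFM1 -1.74 (adjusted p = 0.00122) and ZFP703 -1.73 (adjusted p = 0.00334), while ENG had 0.49 (adjusted p = 0.389).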

How the data were processed

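RNA of 18 cultures was hybridised to Illumina MouseWG-6 v2.0 arrays. The labels supplied the groups, numbers, doses and day, and they give 1 well of every condition per biological replicate. The authors deposited non-normalized intensity values as exported by GenomeStudio 2011.01 (submitters' processing notes), with a detection p-value per probe that compares it with the negative control beads. On the 12 arrays used, intensities ran from 57.7 to 72879. Of 45281 probes, 21906 passed detection (p under 0.05) on 3 or more of the 12 arrays and were kept. A further 5 stray lines at the end of the deposited table, with shifted cells, were left out. Every value column was matched to a sample.

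Background correction and quantile normalization used neqc (limma 3.58.1, R 4.3.3, offset 16), which understates changes of dim genes. A cubic spline, which the study used in the scanner software, was tried as an alternative. The probe with the largest mean stood for its gene (15680 genes, of which 4365 had several probes to choose from). Names come from the array and can be old, and 12715 had a current symbol in GRCm38.p6. All 18 arrays entered 1 limma model (lmFit, contrasts.fit and eBayes) with 6 group means, and contrasts were called at the study's thresholds, adjusted p under 0.1 and absolute log2 difference over 1. The fit was tested on simulated data. Array values have no counts, so their number limits the precision: permuting 3 against 3 arrays reaches no p below 0.1, and the p-values measure the spread between wells of separate biological replicates.

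The samples, lists and rules were chosen with earlier results of these data known. Genes were named as the 10 largest called differences in each direction, up to 10 opposite-sign genes with both effects at an unadjusted p under 0.05, ordered by the smaller effect, and for each list its called members and up to 4 others with the largest differences. The result of 1 gene that this rule selects is not reported here. Same-numbered arrays deviated together in the co-cultures (correlation of deviations 0.332 to 0.524 over 9 pairs) and less so in the mono-cultures (0.0639 to 0.170 over 9 pairs) or across culture types (-0.0291 to 0.179 over 27 pairs). The pairing rests on that listing of wells. Alternatives covered normalization, the detection filter, undetected values raised to the lowest detected value, single probes, the arrays in the fit, variance settings, array weights, replicate blocks, thresholds and leaving out each array.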

Additional observations from a re-analysis of the deposited data

Results flagged for a closer look

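The results below were picked out because the effect of BMP4 differed between the culture types by a test of the difference itself, as described above. They are 89 genes against the -GFs cultures and 1027 genes against the FGF2 cultures, and their values are given without an explanation. As log2 differences (co-culture change minus mono-culture change), the negative ones among the named genes were IRF5 -3.68, ATOH8 -3.61, ID1 -3.29, NCAM1 -3.22, HEY1 -3.06, EPHA7 -3.02, IDB2 -2.85, ID2 -2.67, ID3 -2.45, SLC13A4 -2.43, LAMA1 -1.91, OLFM1 -1.89, FIN15 -1.87, EGFL7 -1.80, FGFR3 -1.60, ZFP703 -1.57, 6720418B01RIK -1.57 and MFNG -1.53. The positive ones were GRHL3 1.04, EVX1 1.05, KLF2 1.18, TBX3 1.34, DSP 1.39, ENG 1.44, ESPN 1.5, LOC100047619 1.56, UROC1 1.63, ANKRD47 1.65, RHOX9 1.76, FAM102A 1.81, IFI27 1.98, TINAG 2.03, RHOX6 2.04, NDP52 2.47 and BC064033 2.52. IRF5 and DSP passed the detection filter only through the group where they are high, so their signs followed largely from that filter. Groups of 3 arrays are too small for a test of single outlying arrays.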

How the results depend on the processing

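The counts of called genes moved more than the values of the named genes, none of which changed sign when called. Against 89 called differences, 23 opposite-sign genes and 1027 calls against FGF2, quantile normalization without background correction gave 75, 9 and 623, and a cubic spline 75, 10 and 625. These 2 settings shared 48 genes each with the 89 and put 33.3% of their calls on the higher side, beside 43.8%. Detection on all 12 arrays gave 45, 13 and 542, from fewer genes tested. The replicate block within each culture type gave 304 and 75, the shared block 152 and 37, and both held all 89 genes. An adjusted p under 0.05 gave 46 and 11, and dropping the fold threshold gave 1960 against FGF2. Leaving out 1 array at a time gave 50 to 111 called differences (lowest without ES/PA6 -GFs replicate 2, highest without ES/PA6 -GFs replicate 1), 11 to 29 opposite-sign genes and 882 to 1032 calls against FGF2. The other settings kept each count within 1.5 times. The 12 arrays alone gave 108 and 24, and the contrast with FGF2 could not be run there. Of 35 named called genes, 33 were tested without each of the 12 arrays and 21 of these stayed called every time, while IRF5 and DSP were tested in 9 of these fits only. Under the other 15 settings 14 were tested in all, of which 8 stayed called. The other 21 were not tested with detection on all 12 arrays, and 12 of these stayed called in the rest. Those lost under at least 1 other setting were 6720418B01RIK, DSP, ENG, EPHA7, EVX1, FGFR3, FIN15, GRHL3, IDB2, IFI27, LAMA1, SLC13A4, TBX3, UROC1 and ZFP703. The cause of these shifts was not tested, apart from the fewer genes. Values near background have only a bound, and a p that missed the threshold does not show equal effects.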
